A study of Mus musculus with 78 samples.

Results

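Replication-dependent histone genes supply most of the protein around which DNA is wrapped. They were taken as the genes whose name in the StringTie tables begins with Hist1h, Hist2h, Hist3h or Hist4h, and 70 of 54446 genes met this rule. By class, 6 encode the linker histone H1, 20 encode H2A, 19 encode H2B, 12 encode H3 and 13 encode H4. By position (mouse build GRCm38, the coordinates of the deposited tables), 56 lie in the Hist1 cluster on chromosome 13, 10 in the Hist2 cluster on chromosome 3, 3 in the Hist3 cluster on chromosome 11 and 1, Hist4h4, on chromosome 6. The gene models name 67 of them protein-coding, and Hist1h2aj, Hist1h2al and Hist3h2bb-ps pseudogenes.

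The H2A, H2B, H3 and H4 proteins form the core particle of the nucleosome, and H1 binds the DNA that enters and leaves it. Cells make these proteins mainly in S phase, when new DNA has to be packaged, and embryonic stem cells spend much of their cycle there. The messenger RNAs of these genes usually carry no poly(A) tail. They end instead just after a short hairpin, the histone stem-loop, which is bound by SLBP and cut with the help of the U7 particle (LSM10 and LSM11 are its own subunits). NPAT, at the nuclear bodies that hold these genes, drives their transcription under control of cyclin E and CDK2.

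The cells were V6.5 mouse embryonic stem cells (mESCs), expanded on feeder fibroblasts in serum and LIF, in which the TRIM28 protein carries an FKBP degron tag, in lines grown from picked colonies. Before these assays the mESCs were depleted of feeders and seeded on gelatin. Adding 500 nM dTAG-13 degrades the tagged protein, and DMSO, the vehicle, served as the control. TT-SLAM-seq, which reads RNA newly labelled with 4-thiouridine, has 3 libraries per group (DMSO, and dTAG-13 for 2 h, 6 h or 24 h). RNA-seq made with an mRNA kit has 3 libraries for each of these groups and for 96 h of dTAG-13. The same mRNA kit was used for 3 libraries of the untagged, untreated parental V6.5 line and 3 of neural progenitor cells (NPCs) kept in DMSO, while a total RNA kit that removes ribosomal RNA was used for the shERV line, a tagged line with inducible hairpins against endogenous retroviruses, with 3 libraries each in DMSO, in dTAG-13 for 24 h, and in dTAG-13 with doxycycline (Dox). The labels describe 24 h of Dox before treatment for all 3 shERV groups but name Dox as a treatment only in the last. ChIP-seq peaks came from DMSO and from 24 h of dTAG-13, with 3 libraries per group for H3K27Ac and H3K9me3 and 2 per group for RNA polymerase II (RNAPII) and the Mediator subunit MED23. The labels do not say whether replicates were separate cultures, so p-values measure the spread between these libraries, which may be technical.

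dTAG-13 acts on the protein, so the Trim28 transcript does not check the labels: it had from 622 to 626 TPM in DMSO and from 185 to 204 TPM at 96 h. Gene levels of the mRNA kit and of the total RNA kit are given as TPM (abundance per length, scaled to the same total in every library) and those of TT-SLAM-seq as FPKM (reads per length and depth). TPM carries no read numbers, and the relative depth of the libraries, read from their mean coverage, ran from 0.288 to 1.5 in the mRNA kit and from 0.916 to 1.32 in the total RNA kit. In TT-SLAM-seq the depth worked out from the smallest values ran from about 6438193 to 24091707 reads, with a median from about 78.0 to 463 reads per histone gene. These read numbers are approximate, since only 49.3% to 53.7% of the values checked came within 0.05 of a whole read. Pluripotency markers (6 genes) summed to between 3386 and 3718 TPM in the tagged line and to between 414 and 432 TPM in NPCs, whose 6 neural markers summed to between 3335 and 3403 TPM. In bulk RNA, fewer cells of a type and less RNA per cell cannot be told apart.

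The stem-loop is the part of these transcripts that sets how their RNA ends, so its sequences are shown first. They were read from the GRCm38 genome within the 300 bases that follow each stop codon, as a stem of 6 base pairs around a loop of 4 bases. The search took only perfectly paired stems that begin with GG and loops that begin with TT. Stem-loops with a mismatch or another start could not be found. The capitals mark the paired stem. A stem-loop of this kind was found in 63 of the 67 protein-coding histone genes, from 21 to 58 bases after the stop codon (median 30). Over all 21752 protein-coding genes searched the same way, 77 had one (0.354%), so 14 lay in other genes. Within this fixed pattern, 6 forms occurred in the histone genes:
form A, 41 genes: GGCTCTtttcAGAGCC
form B, 9 genes: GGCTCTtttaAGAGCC
form C, 1 gene: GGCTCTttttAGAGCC
form D, 8 genes: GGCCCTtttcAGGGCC
form E, 2 genes: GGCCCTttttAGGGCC
form F, 2 genes: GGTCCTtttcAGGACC

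Forms A to C were found in H1, H2A, H2B and H3 genes, and forms D to F in H4 genes alone. Form A stood, for example, at chr13:23739512-23739527 in the 3′ part of Hist1h1c, and form D at chr13:21750150-21750165, just after Hist1h4k. No stem-loop was found in the coding genes Hist1h2an, Hist1h3g, Hist1h4a and Hist2h2be, and the 3 pseudogenes were not searched. The annotated models differed in where they stop: 37 ended at or within 100 bases of the stem-loop or before it and are called compact here, and 26 ran more than 100 bases past it or had a second exon and are called extended. Hist1h1c (chr13:23738808-23740367), Hist1h2bc (chr13:23684199-23692908) and Hist3h2a (chr11:58954685-58956830) are extended models on the plus strand, while Hist1h4k (chr13:21750194-21750505, minus strand) is compact, so its model stops short of its own stem-loop. Of the 70 models, 65 have a single exon.

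Many of these genes are near-identical copies, which limits what a level of 1 gene means. Of the 100-base windows of each model, under 10% were found nowhere else in the genome for 8 genes and under 50% for 25 genes, while 9 genes were unique throughout. Hist1h2ao and Hist1h2ap, H2A genes that share over 92% of their windows with each other, had none of their own, nor had Hist1h2bq, Hist1h2br and Hist2h2aa2, so their levels are uncertain taken singly. Hist1h2ai (11.6% unique), Hist1h4m (11.9%), Hist1h4n (10.9%), Hist2h3b (22.9%) and Hist1h2ag (23.6%) are uncertain for the same reason. Hist1h1a, Hist2h2bb, Hist2h2be, Hist3h2a and Hist1h1t were unique in all windows. Hist3h2a overlaps Trim17 on the same strand, and Hist2h2bb overlaps Gm42743.

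Promoters (250 bases before and 50 after the start, RefSeq, GRCm38.p6) were matched for 61 of the 70 genes, and are shown for 4 genes whose levels are described further on. Capitals mark any of 4 motifs searched on both strands: TATAAA, the TATA box core, CCAAT, the CCAAT box, ATTTGCAT, the octamer read by POU-domain factors such as OCT1 and OCT4, and GGTCCG, which was chosen after the sequences were seen.
Hist1h1c, chr13:23738557-23738856, plus strand: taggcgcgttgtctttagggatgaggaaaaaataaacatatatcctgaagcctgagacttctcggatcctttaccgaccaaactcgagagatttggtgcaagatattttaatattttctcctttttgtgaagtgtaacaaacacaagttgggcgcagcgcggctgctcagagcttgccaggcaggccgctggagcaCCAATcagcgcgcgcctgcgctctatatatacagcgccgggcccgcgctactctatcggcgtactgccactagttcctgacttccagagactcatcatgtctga
Hist1h2ba, chr13:23934107-23934406, minus strand: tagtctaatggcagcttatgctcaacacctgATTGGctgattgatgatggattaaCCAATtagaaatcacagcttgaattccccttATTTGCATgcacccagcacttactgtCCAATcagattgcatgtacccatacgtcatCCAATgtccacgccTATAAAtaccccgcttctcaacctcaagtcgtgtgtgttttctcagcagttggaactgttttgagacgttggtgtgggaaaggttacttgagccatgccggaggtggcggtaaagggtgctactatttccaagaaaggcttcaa
Hist3h2ba, chr11:58948661-58948960, plus strand: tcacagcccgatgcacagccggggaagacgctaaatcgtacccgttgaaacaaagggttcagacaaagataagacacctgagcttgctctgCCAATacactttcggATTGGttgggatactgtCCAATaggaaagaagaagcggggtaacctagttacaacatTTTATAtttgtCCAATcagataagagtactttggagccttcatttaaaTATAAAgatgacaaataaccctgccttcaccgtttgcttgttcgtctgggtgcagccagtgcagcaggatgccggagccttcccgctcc
Hist1h4k, chr13:21750504-21750803, minus strand: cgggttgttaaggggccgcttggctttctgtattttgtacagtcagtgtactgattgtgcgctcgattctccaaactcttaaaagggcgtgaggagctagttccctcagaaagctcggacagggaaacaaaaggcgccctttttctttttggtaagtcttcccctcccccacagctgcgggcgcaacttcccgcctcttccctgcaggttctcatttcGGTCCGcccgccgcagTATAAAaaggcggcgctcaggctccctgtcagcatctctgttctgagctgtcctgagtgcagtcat

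CCAAT was present in the promoters of all H1, H2A, H2B and H3 genes matched, but in only 3 of 12 H4 promoters, against 37.9% of all 27025 promoters of the same length. GGTCCG showed the converse, with 11 of 12 H4 promoters, 1 of 16 H2B and 1 of 10 H3 promoters, against 8.39% of all promoters. The octamer occurred in 7 of 17 H2A and 6 of 16 H2B promoters and in no other class, against 1.75% of all promoters. TATAAA was present in 35 of the 61 (57.4%), against 14.2%. H2A and H2B genes often share 1 stretch of promoter: 14 pairs of histone genes start within 500 bases of each other on opposite strands, among them Hist1h2ba and Hist1h2aa, whose starts are 306 bases apart. These matches describe the letters and are not evidence of binding.

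The chromatin around the starts was compared with that at 21951 protein-coding starts, counting a start as overlapped when a peak lay within 500 bases. In DMSO, RNAPII peaks overlapped 66 and 68 of the 70 histone starts in the 2 libraries, against 39.9% and 40.1% of protein-coding starts, and MED23 peaks 69 and 70, against 58.5% to 58.8%. H3K27Ac, a mark of active promoters and enhancers, overlapped 66 to 67 starts (46.1% to 48.0% of protein-coding starts), and H3K9me3, the repressive mark that TRIM28 helps to place, 0 to 3 (1.90% to 2.46%). The RNAPII peaks at histone starts were tall, with a median fold enrichment over background of 59.6 and 56.8, above 99.5% of all peaks of those libraries. Because neighbouring starts lie so close together, the 70 starts form 55 separate windows.

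After 24 h of dTAG-13 the 2 RNAPII libraries overlapped 65 histone starts each, against 20.2% and 22.2% of protein-coding starts, and the 2 MED23 libraries overlapped 66 each, against 15.5% to 17.4%. The median fold enrichment at histone starts was 23.2 and 21.8 for RNAPII and 14.8 and 16.5 for MED23, where it had been 46.2 and 42.4 for MED23 in DMSO. Fewer peaks were called in these libraries, 7689 to 8182 against 19194 to 19853 for RNAPII and 14551 to 15335 against 58925 to 63045 for MED23, and the peaks carry no scaling between libraries, so the lower enrichment cannot be told apart from a difference between the libraries as a whole. H3K27Ac overlapped 53, 66 and 62 histone starts in the 3 dTAG-13 libraries, whose peak numbers ran from 30259 to 117348. The shares of protein-coding starts in the same libraries were 30.1%, 49.1% and 31.4%, so the lower counts went with lower shares over all genes. H3K9me3 overlapped 0, 4 and 0 histone starts, against 0.337%, 2.43% and 2.43% of protein-coding starts. With 2 or 3 libraries per group, no test was made on these counts.

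A few histone genes had fewer of these peaks. Hist1h1t, the testis form of H1, had no H3K27Ac and no RNAPII peak at its start in any library. Hist1h2ba and Hist1h2aa, the testis forms of H2B and H2A, had no H3K27Ac peak in any library, an RNAPII peak in 1 of 2 DMSO libraries, and an H3K9me3 peak in 1 DMSO and 1 dTAG-13 library. The H3K9me3 peak was not particular to Hist1h2ba and Hist1h2aa. Hist1h4m had it in the same libraries, Hist1h4n in 1 DMSO library and Hist1h4h in 1 dTAG-13 library. Those H4 genes had H3K27Ac and RNAPII peaks in every library. The 3 testis forms, Hist1h1t, Hist1h2ba and Hist1h2aa, had a MED23 peak in both DMSO libraries and in no dTAG-13 library. Hist1h1d had an H3K27Ac peak in 2 of 3 DMSO libraries, a MED23 peak in 1 of 2 and no RNAPII peak, and its annotated start is 1770 bases from the start given by RefSeq.

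The 2 RNA-seq kits gave very different pictures of the histone genes in DMSO. In the tagged line, the mRNA kit put the sum of all 70 genes between 412 and 456 TPM, which is 0.0412% to 0.0456% of all TPM. In the shERV line, the total RNA kit put it between 30634 and 36163 TPM, or 3.06% to 3.62%. No library of either kit came near the other. The ratio of the mean TPM in the total RNA kit to that in the mRNA kit was over 100 for 51 of the 69 genes with a value above 0 in the mRNA kit, with a median of 241.8. The line and the kit differ together and cannot be told apart here.

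**Figure D1:**
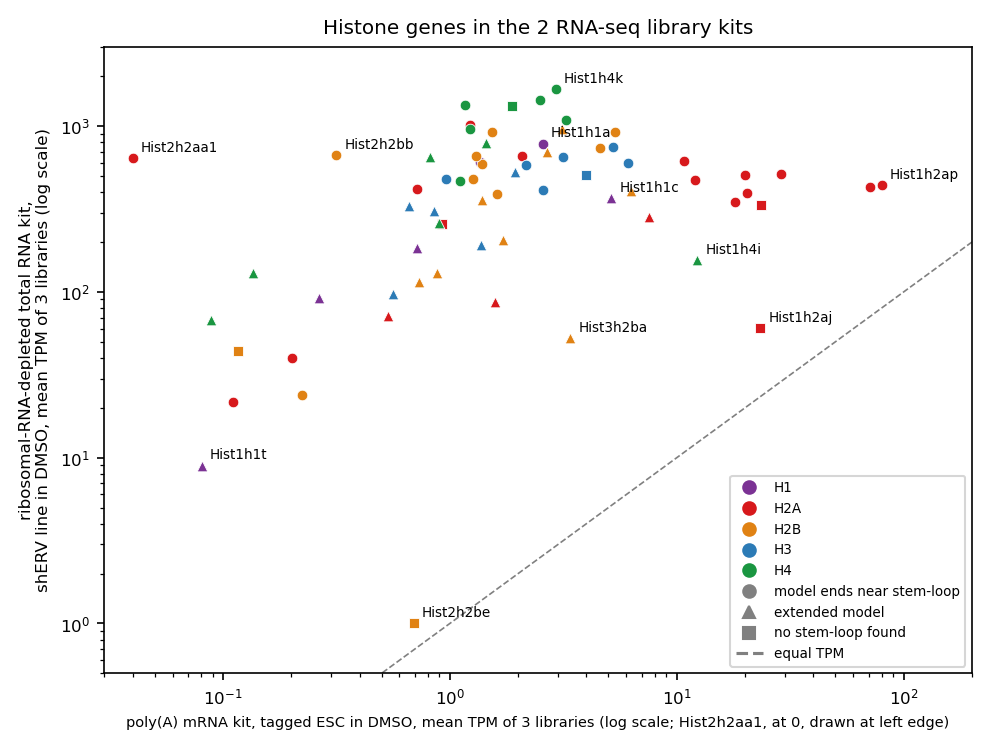
Mean TPM of each histone gene in DMSO in the mRNA kit (horizontal, log scale, tagged mESCs) and in the total RNA kit (vertical, log scale, shERV line), 3 libraries each. Colours give the histone class, symbols the gene model, and the dashed line equal TPM. Every gene lies above the line, most of them far above it, while Hist2h2be and Hist1h2aj lie nearest to it.

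Hist1h4k, an H4 gene, had 2.93 TPM in the mRNA kit and 1668 TPM in the total RNA kit, the highest level of all histone genes there. Hist1h1a, an H1 gene, had 2.57 TPM and 784 TPM, and Hist2h2aa1 was listed at 0 in the mRNA kit and had 642.5 TPM in the total RNA kit. At the other end, Hist2h2be, an H2B gene in which no stem-loop was found, had 0.692 TPM and 1.01 TPM, a ratio of 1.46. The pseudogene Hist1h2aj had 23.4 TPM and 60.4 TPM, and Hist1h4i, an H4 gene with an extended model (chr13:22040636-22041362), 12.3 TPM and 156 TPM. The near-identical pair Hist1h2ap (80.0 TPM and 443 TPM) and Hist1h2ao (71.1 TPM and 428 TPM) had ratios of 5.54 and 6.02, below the 12.6 of Hist1h4i. The median ratio was 254.9 in compact models, 215 in extended models and 127.9 in the 7 where no stem-loop was found. Among compact models alone the ratio ranged from 5.54 to 2128. By class the median ratio was lowest in H2A (39.5) and highest in H4 (578).

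The classes therefore took different shares of the histone signal in each assay. H2A genes made up 74.9% of the histone TPM in the mRNA kit, 22.6% in the total RNA kit and 10.8% of the histone FPKM in TT-SLAM-seq (means of 3 DMSO libraries). Hist1h2ao and Hist1h2ap alone, the pair of near-identical copies, were 35.1% of the sum in the mRNA kit, 2.58% in the total RNA kit and at 0 in TT-SLAM-seq. H4 genes took 6.91%, 30.6% and 20.5%, and H1 genes 2.36%, 6.06% and 27.4%, in the same order. The part of sequence shared between copies in these shares was not tested.

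In TT-SLAM-seq, the levels of new RNA per length differed widely between histone genes. The length is that of the gene model, 741 bases for Hist1h1a and 7425 bases for Hist1h1d (33.1 FPKM), so the order of genes depends on their models. The summed FPKM of the histone genes in DMSO was 4386 at most and 3014 at least, which is 1.41% to 2.04% of all FPKM. Hist2h2bb, an H2B gene (chr3:96269752-96270132), led with 994, 852 and 804 FPKM in the 3 DMSO libraries, although it had under 1 TPM in every DMSO library of the mRNA kit, and reads of Gm42743, which lies over it, are not separable. Of the linker histone genes, Hist1h1a followed with 415, 439 and 400 FPKM and Hist1h1b with a mean of 395.2 FPKM. Next came Hist1h4d (128 FPKM), Hist1h3g (124 FPKM), Hist1h1c (123 FPKM), Hist1h2bb (111 FPKM) and Hist1h4h (109 FPKM). Beside these, 9 to 12 of the 70 genes had fewer than about 10 reads in a library, among them Hist1h2ao, Hist1h2ap, Hist1h2bq, Hist1h2br, Hist1h4m and Hist1h2ba.

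The time course asks how histone transcripts respond as TRIM28 is lost. New RNA of the histone genes was not detectably altered at 2 h or 6 h. Of 62 genes tested in TT-SLAM-seq, 0 passed limma's test (adjusted p below 0.05, corrected over all 13357 genes tested) in either direction at both times, where 1.58% of all genes were higher and 1.97% lower at 2 h, and 7.82% were higher and 1.27% lower at 6 h. At an unadjusted p below 0.05 there were 2 histone genes at each time. The libraries at 6 h were far apart, with sums of 2940, 5256 and 1967 FPKM, which span the whole DMSO range and more. Without replicate 2 of that group, 1 gene was lower at 6 h. The 3 time points share their DMSO libraries. The 8 genes too low to test were Hist1h2al, Hist1h2ao, Hist1h2ap, Hist1h2bq, Hist1h2br, Hist1h4m, Hist2h2aa1 and Hist2h2aa2. All but Hist1h2al had 0% to 11.9% of their 100-base windows unique. In the shERV line in DMSO, the same genes had 356 to 1009 TPM in the total RNA kit. Their low TT-SLAM-seq values thus do not show that they make little new RNA.

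At 24 h, 1 of the 62 genes was higher in TT-SLAM-seq and 0 were lower, where 32.3% of all genes were higher and 5.59% lower. The gene was Hist3h2ba, an H2B gene of the Hist3 cluster (chr11:58948920-58949533), with 6.26, 5.44 and 3.43 FPKM in DMSO and 12.1, 8.66 and 11.6 FPKM at 24 h. Its groups did not overlap, and the log2 change was 1.05 (SE 0.28, limma adjusted p = 0.0135), past 2-fold as for 2.49% of all genes. The median histone gene moved by 0.14 and the median of all genes by 0.21 (log2). When each library was centred on its median, 0 histone genes were higher and 0 lower, against 13.9% and 16.8% of all genes, and 1 gene was lower without replicate 3 of DMSO and 2 were higher without replicate 2 of the 24 h group. Hist2h2bb, the strongest gene, had 792, 489 and 727 FPKM at 24 h, each below the 3 DMSO libraries, but its log2 change of -0.42 did not pass (limma adjusted p = 0.301). At an unadjusted p below 0.05 there were 2 genes.

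In the time course of the mRNA kit 61 histone genes were tested, and 9 were too low: Hist1h1d, Hist1h1t, Hist1h2aa, Hist1h2ba, Hist2h2aa1, Hist2h2ab, Hist2h4, Hist3h2bb-ps and Hist4h4. At 2 h, 3 were higher and 0 lower, where 8.25% of all 17922 genes were higher and 7.02% lower. All 3 were H2A genes of the near-identical group. Hist1h2ao had 69.3, 73.3 and 70.8 TPM in DMSO and 97.3, 112 and 92.5 TPM at 2 h (log2 0.49, SE 0.11, limma adjusted p = 0.0102). Hist1h2ap (log2 0.48, adjusted p = 0.014) and Hist1h2ai (0.46, adjusted p = 0.0416) moved by about as much, and in none of the 3 did the groups overlap. These are copies of nearly the same sequence and should not be read as separate events. Of the 61 genes 15 had an unadjusted p below 0.05, and without DMSO replicate 1 or 2 h replicate 2 only 1 gene passed.

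At 6 h, 4 genes were higher and 2 lower, where 18.4% of all genes were higher and 15.5% lower. Hist1h4k rose from 2.79, 3.94 and 2.05 TPM to 4.09, 6.92 and 6.94 TPM (log2 0.92, SE 0.25, limma adjusted p = 0.0131), with no overlap between the groups. Hist1h4h and Hist1h4m, also H4 genes, rose by 0.84 and 0.80 (log2), and the H2B gene Hist1h2be by 0.63. Hist1h2ap fell by 0.41 (log2, adjusted p = 0.0166) to 48.1, 59.2 and 76.1 TPM, and Hist1h2ao by 0.35 (adjusted p = 0.028) to 45.1, 54.5 and 70.0 TPM, where its groups overlapped. The 3 libraries at 6 h differed widely in their histone sum, at 287, 421 and 461 TPM, and these counts turned on single libraries. They became 10 higher and 0 lower without 6 h replicate 1, and 1 higher and 10 lower without 6 h replicate 3. There were 2 higher and 1 lower without DMSO replicate 1, 0 lower without DMSO replicate 2, and 1 lower without DMSO replicate 3 or without 6 h replicate 2. With centred libraries 4 were higher and 4 lower, against 11.3% and 26.3% of all genes.

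At 24 h more histone genes were higher than at the earlier times, and none lower: 27 higher and 0 lower, where 42.9% of all genes were higher and 25.0% lower. The share of higher histone genes was thus near that of all genes. By class, 5 of 11 H4, 9 of 17 H2B, 5 of 12 H3, 7 of 17 H2A and 1 of 4 H1 genes were higher. The largest changes were in H4. Hist1h4m had 0.931, 1.16 and 1.25 TPM in DMSO and 5.28, 3.62 and 2.87 TPM at 24 h (log2 1.43, SE 0.23, limma adjusted p = 6.5e-05). Hist1h4h went from 1.016, 1.103 and 1.377 TPM to 3.21, 2.76 and 3.44 TPM (log2 1.13, adjusted p = 0.0011), and Hist1h4n from 2.44, 2.74 and 2.29 TPM to 7.98, 5.68 and 4.00 TPM (log2 1.05, adjusted p = 0.000778). In all of these every treated library lay above every DMSO library. They were the 3 genes past 2-fold, against 10.1% of all genes. Hist1h4m shares 88.1% of its 100-base windows with Hist1h4n, and Hist1h4n 80.7% with Hist1h4m. These 2 should therefore not be read as separate events.

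Among genes of other classes, Hist2h2be, the H2B gene in which no stem-loop was found, had 0.592, 0.616 and 0.867 TPM in DMSO and 1.91, 1.85 and 1.64 TPM at 24 h (log2 0.95, limma adjusted p = 0.000191). Outside the 24 h group it reached 1 TPM only in 2 h replicate 3 (1.165 TPM) and 6 h replicate 2 (1.03 TPM). It thus entered the test only through the 24 h group, and its call is no independent support. Hist1h2bl rose by 0.93 (log2, limma adjusted p = 0.0027). Hist1h1c stayed within its spread, at a log2 change of 0.03 (adjusted p = 0.817). The median histone gene had a log2 change of 0.41 and the median of all genes 0.13. Once each library was centred on its median, 9 histone genes were higher and 3 lower, against 25.9% and 44.1% of all genes. Replicate 1 of this group had the lowest depth (0.288 of the median library). The count of higher genes was 17 without DMSO replicate 1, 17 without DMSO replicate 3 and 16 without 24 h replicate 3.

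At 96 h the histone genes split. Of the 61 tested, 17 were higher and 6 lower, where 42.9% of all genes were higher and 37.4% lower. Of these, 4 rose and 2 fell past 2-fold. Hist1h1c, one of the H1 genes expressed in most tissues, had 4.66, 5.48 and 5.28 TPM in DMSO and 26.8, 27.3 and 27.2 TPM at 96 h (log2 2.29, SE 0.11, limma adjusted p = 4.78e-11). Hist1h2bc, an H2B gene with a second exon, had 6.25, 7.64 and 4.90 TPM and then 29.9, 33.1 and 31.6 TPM (log2 2.26, SE 0.13, adjusted p = 6.25e-10). Hist3h2a, the H2A gene of the Hist3 cluster, had 1.70, 1.49 and 1.54 TPM and then 8.12, 8.44 and 8.68 TPM (log2 2.10, SE 0.12, adjusted p = 4.43e-10). The groups lay far apart in all 3, and Trim17, which overlaps Hist3h2a, had a mean of 0.138 TPM in DMSO and 0.326 TPM at 96 h.

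The fourth gene past 2-fold was Hist1h2bg, an H2B gene, with 3.44, 2.84 and 3.11 TPM in DMSO and 8.32, 8.05 and 9.32 TPM at 96 h (log2 1.32, SE 0.16, limma adjusted p = 2.58e-06). These 4 of 61 compare with 20.3% of all genes past 2-fold and higher. Hist1h1c, Hist1h2bc, Hist3h2a and Hist1h2bg all have extended models. Among extended models 8 of 22 genes were higher and 0 lower, while among compact models 8 of 33 were higher and 5 lower. At 2 h, 6 h and 24 h Hist1h1c and Hist1h2bc had remained near their DMSO levels, as the plot of TPM over the time course shows. The H2A pseudogene Hist1h2al rose by 0.92 (log2, adjusted p = 0.00259).

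**Figure D2:**
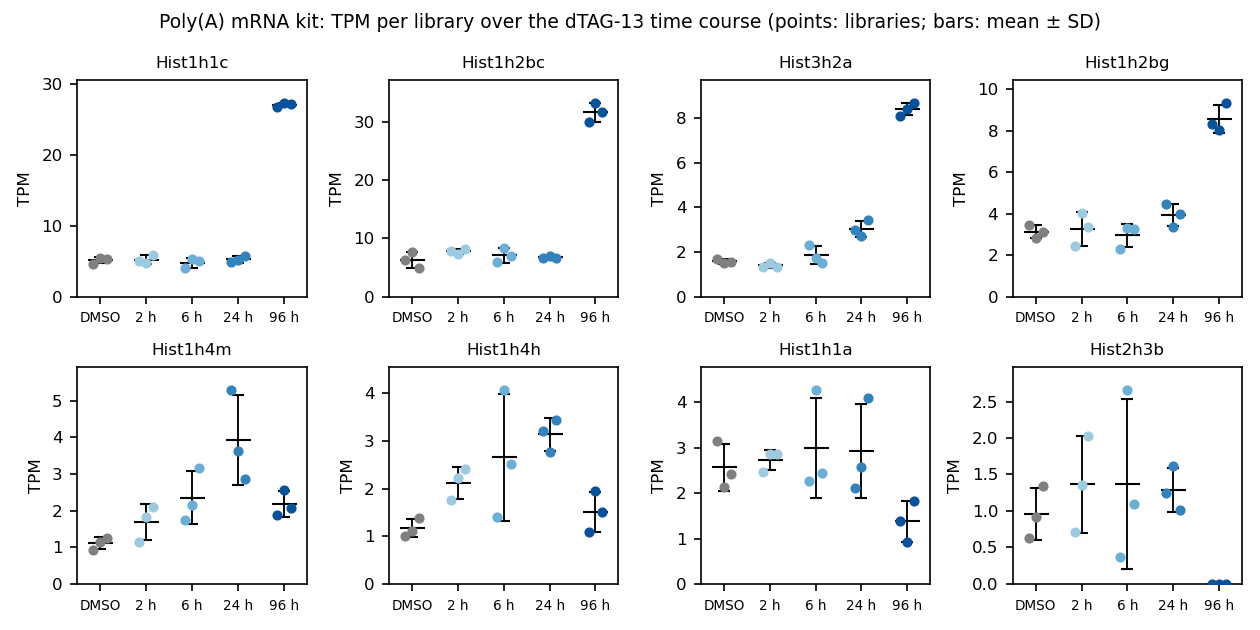
TPM in the mRNA kit for 8 histone genes at each step of the dTAG-13 time course, from DMSO at the left to 96 h at the right. Points are single libraries, and bars are the mean and SD of 3 libraries. Hist1h1c, Hist1h2bc, Hist3h2a and Hist1h2bg stand apart at 96 h, Hist1h4m and Hist1h4h are highest at 24 h, and Hist1h1a and Hist2h3b are lowest at 96 h.

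The genes that were lower at 96 h came from H2A, H2B, H3 and H1. Hist2h2aa2 had 1.22, 1.73 and 0.722 TPM in DMSO and Hist2h3b 0.630, 0.920 and 1.34 TPM, and both were listed at 0 in all 3 libraries at 96 h, so no fold is given. They were the 2 genes past 2-fold and lower, where 12.4% of all genes were. Both share most of their sequence with other copies. Hist2h2bb, of the same cluster but unique in all windows, was also listed at 0 in all 3 libraries at 96 h. It had only 0.456, 0.371 and 0.119 TPM in DMSO and was not among the genes that passed. Of the copies of Hist2h3b, Hist2h3c2 had a mean of 0.660 TPM in DMSO and 1.56 TPM at 96 h. Hist2h3c1 had 0.560 TPM and 1.32 TPM, with 96 h replicate 1 at 0.0757 TPM. Hist2h2aa1, which holds all windows of Hist2h2aa2, was at 0 in DMSO and at 1.06 TPM in 96 h replicate 1 only. Whether reads were assigned to other copies was not tested. Hist1h1a, the H1 gene with the most new RNA, fell from 3.14, 2.14 and 2.42 TPM to 1.39, 0.921 and 1.83 TPM (log2 -0.72, limma adjusted p = 0.014). The H3 genes Hist1h3g (log2 -0.72, adjusted p = 0.00616) and Hist1h3h (-0.52, adjusted p = 0.0405) and the H2B gene Hist1h2bm (-0.59, adjusted p = 0.0493) also fell. Without 96 h replicate 2 only 3 genes were lower. With centred libraries 9 histone genes were higher and 9 lower, against 33.7% and 48.6% of all genes.

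Cell markers moved at the same time. The 6 pluripotency markers summed to between 289 and 330 TPM at 96 h, all 6 lower, against 3386 to 3718 TPM in DMSO. The feeder fibroblast markers, of which all 7 tested were higher, summed to between 278.9 and 302.9 TPM at 96 h against 23.6 to 24.7 TPM in DMSO, and Lum among them was at 0 in DMSO and at a mean of 0.398 TPM at 96 h. The mESCs had been depleted of feeders before treatment, and the part of these markers' cells in the rise of Hist1h1c, Hist1h2bc and Hist3h2a was not tested.

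S-phase genes went the other way from these histone genes. Of 24 genes of DNA replication, the number that were lower was 3 (2 h), 15 (6 h), 18 (24 h) and 23 (96 h), 13 of the last past 2-fold, and 1 gene was higher at 24 h. Of all genes, 7.02%, 15.5%, 25.0% and 37.4% were lower at these times, with 12.4% past 2-fold at 96 h. At 24 h 42.9% of all genes were higher. Pola1, the catalytic subunit of DNA polymerase alpha, had means of 47.5 TPM in DMSO and 12.4 TPM at 96 h, and Ung, a uracil DNA glycosylase, 91.9 TPM and 25.2 TPM. Of 26 genes that process or regulate histone mRNA, 9 rose and 13 fell by 24 h, and at 96 h there were 6 higher and 17 lower. Among all genes 42.9% were higher at either time, while 25.0% were lower at 24 h and 37.4% at 96 h. Slbp, which encodes the stem-loop binding protein, went from 133.6 TPM in DMSO to 86.5 TPM at 96 h (log2 -0.62, limma adjusted p = 1.68e-07), and Ccne1, which encodes cyclin E1, from 241.7 TPM to 106.4 TPM at 24 h and 91.2 TPM at 96 h. In TT-SLAM-seq at 2 h, 9 of the 24 S-phase genes were lower and 0 higher, against 1.97% and 1.58% of all genes. Slbp, a member of both lists, had 3.61 FPKM in DMSO and 2.15 FPKM at 2 h (log2 -0.63, limma adjusted p = 0.0212).

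Histone chaperones, which carry histones to DNA, and histones made outside S phase were followed alongside. Of 15 chaperone genes, 2 were higher and 12 lower at 96 h, where 42.9% of all genes were higher and 37.4% lower. Nasp, a carrier of H3 and H4 and of linker histones, had 837 TPM in DMSO and 255 TPM at 96 h, and Npm1 4220 TPM and 1696 TPM. Of 12 replication-independent histone genes tested, 4 were higher and 2 lower at 96 h, against the same 42.9% and 37.4% of all genes. H2afz, which encodes the variant H2A.Z, had 1006 TPM in DMSO and 457 TPM at 96 h, and H2afy2, which encodes a macroH2A, 29.8 TPM and 62.1 TPM.

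The shERV line sets dTAG-13 alone beside dTAG-13 with Dox, which induces the hairpins. Its total RNA kit covers all 70 histone genes, most of them at high levels. After 24 h of dTAG-13, 36 of the 70 were lower and 2 higher, where 12.8% of all 16166 genes were lower and 41.2% higher. The changes were small, with a median of -0.18 (log2) over the histone genes and 0.14 over all genes. The summed level was 30634 to 36163 TPM in DMSO and 29204 to 30035 TPM in dTAG-13, without overlap, and DMSO replicate 1 was the lowest of its group. Without that library 57 genes were lower. Centring the libraries, which removes the shift of 0.14 in the median gene, gave 63 lower and 0 higher histone genes, against 29.6% and 25.9% of all genes. By class, 13 of 19 H2B, 8 of 13 H4, 4 of 6 H1, 7 of 20 H2A and 4 of 12 H3 genes were lower.

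The largest falls were in the testis-type genes, which had no H3K27Ac peak at their starts. Hist1h1t had 7.49, 10.5 and 8.87 TPM in DMSO and 3.73, 4.68 and 4.52 TPM in dTAG-13 (log2 -0.97, SE 0.12, limma adjusted p = 3.25e-05). Hist1h2ba, whose promoter is shown above, had 23.1, 24.1 and 24.0 TPM and then 14.4, 13.4 and 14.6 TPM (log2 -0.73, adjusted p = 2.48e-06), and its divergent neighbour Hist1h2aa 18.4, 24.0 and 22.5 TPM and then 12.1, 12.5 and 14.1 TPM (log2 -0.72, adjusted p = 4.15e-05). In each the treated libraries lay below all DMSO libraries. Next came the H2B genes Hist1h2bf, from 363, 401 and 409 TPM to 271, 271 and 286 TPM (log2 -0.50, adjusted p = 6.49e-06), and Hist1h2bm, from 418, 508 and 507 TPM to 338, 350 and 350 TPM (log2 -0.46, adjusted p = 0.00011). In TT-SLAM-seq of the tagged line Hist1h1t, Hist1h2ba and Hist1h2aa did not pass at any time, but Hist1h2ba had only about 4.98 to 55.7 reads in a library, which says little either way.

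The linker histone genes did not move as a block. Hist1h1a fell from 717, 807 and 829 TPM to 642, 625 and 656 TPM (log2 -0.29, limma adjusted p = 0.000766), Hist1h1b by 0.21 (log2, adjusted p = 0.00423) and Hist1h1d by 0.19 (adjusted p = 0.0103), and Hist1h1c had a change of -0.12 that did not pass (adjusted p = 0.0648). Hist1h1e was 1 of the 2 genes that were higher, from 173, 192 and 190 TPM to 218, 222 and 214 TPM (log2 0.24, adjusted p = 0.000952). Its annotated model overlaps that of Hist1h2be on the same strand. The other was Hist3h2a, from 80.7, 90.6 and 90.8 TPM to 102, 97.7 and 102 TPM (log2 0.20, adjusted p = 0.00708). Both calls were lost when libraries were centred.

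With Dox added to dTAG-13, the histone genes were higher again than in dTAG-13 alone. Of the 70, 55 were higher and 1 lower, where 17.5% of all genes were higher and 29.3% lower. The summed level was 34383 to 35527 TPM, above the 3 libraries in dTAG-13 alone. Hist1h1t had 6.94, 8.07 and 7.69 TPM (log2 0.75 against dTAG-13, limma adjusted p = 0.000294), Hist1h2ba 24.2, 21.0 and 24.0 TPM (log2 0.69, adjusted p = 4.94e-06) and Hist1h2aa 20.9, 19.8 and 19.4 TPM (log2 0.62, adjusted p = 0.000172). Hist1h2bf, at 410, 414 and 404 TPM (log2 0.57, adjusted p = 2.98e-06), and Hist1h1a, at 857, 835 and 854 TPM (log2 0.40, adjusted p = 8.64e-05), were likewise above all libraries in dTAG-13 alone. The 1 lower gene was Hist1h1e, at 192, 194 and 200.0 TPM (log2 -0.16, adjusted p = 0.0146), and this call was lost without replicate 1 of the Dox group. This comparison and the one before share the dTAG-13 libraries, so that opposite directions in them are no independent result. No group was named with Dox but without dTAG-13, and none had Dox without the hairpins. An effect of Dox itself, or of the hairpins alone, cannot be told apart from an altered response to dTAG-13.

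**Figure D3:**
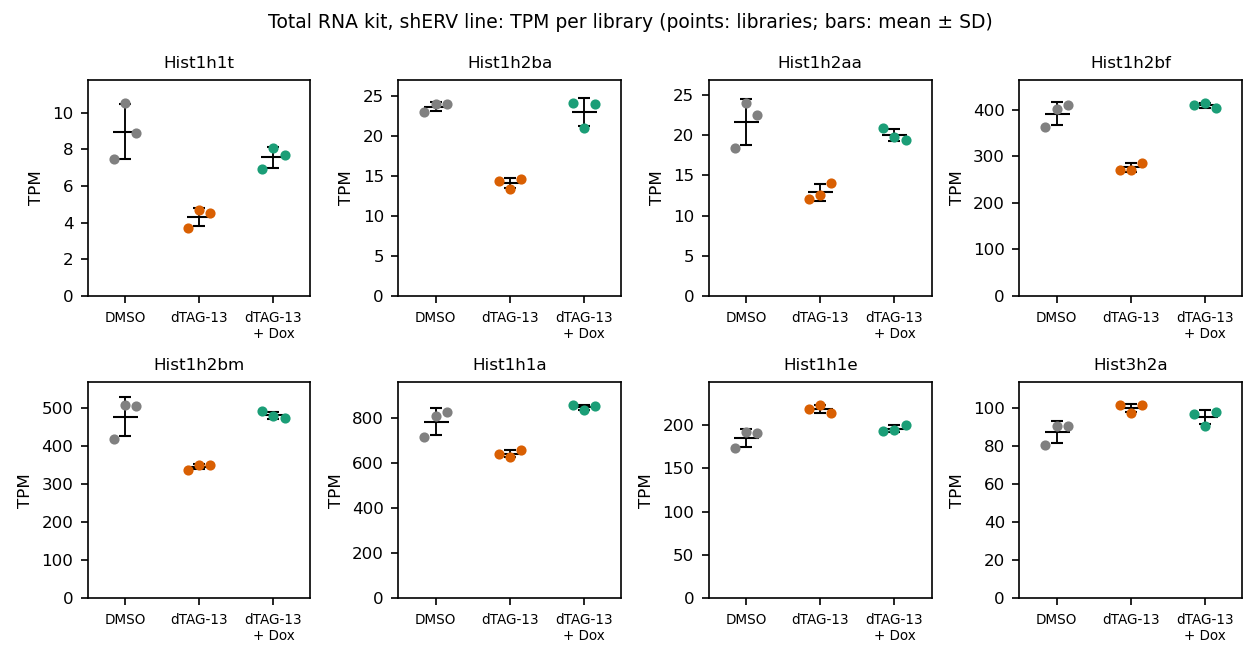
TPM in the total RNA kit for 8 histone genes in the shERV line in DMSO, in dTAG-13 for 24 h and in dTAG-13 with Dox. Points are single libraries, and bars are the mean and SD of 3 libraries. In the first 6 panels the 3 dTAG-13 libraries lie below all libraries of the other groups, and in the panels for Hist1h1e and Hist3h2a they lie above the DMSO libraries.

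In the same libraries, 13 of the 24 S-phase genes were lower and 1 higher in dTAG-13, and 19 were higher and 0 lower with Dox. Among all genes 12.8% were lower and 41.2% higher in dTAG-13, and 17.5% were higher and 29.3% lower with Dox. All 6 pluripotency markers were lower in dTAG-13, with sums of 1852 to 2171 TPM in DMSO and 878 to 917 TPM in dTAG-13, and all 6 were higher with Dox (2099 to 2132 TPM). Feeder markers summed to between 102 and 123 TPM over the 9 libraries. Histone genes, S-phase genes and pluripotency markers thus moved in 1 direction within these libraries, and whether the share of cells in S phase changed was not tested. At 24 h of dTAG-13 the tagged line in the mRNA kit had 27 of 61 histone genes higher and 0 lower. Of all genes there, 42.9% were higher, near the histone share, and 25.0% lower. Once centred, 9 histone genes were higher and 3 lower, against 25.9% and 44.1% of all genes. The shERV line in the total RNA kit had 2 of 70 higher and 36 lower, against 41.2% and 12.8% of all genes. The kit, the line and the Dox of the shERV protocol differ between them and cannot be told apart, and the difference itself was not tested.

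The parental line differs from the tagged line in the tag, in having had no DMSO and in not coming from a picked colony, and these cannot be told apart. In this fit, which also holds the NPCs, Hist3h2bb-ps was tested and Hist2h2bb was not. Of 61 genes tested, 46 were higher in parental than in tagged mESCs and 0 were lower, where 25.0% of all 17458 genes were higher and 41.0% lower. Past 2-fold there were 22 higher genes, against 2.25% of all genes. The histone sum was 1127, 1023 and 1382 TPM in the parental line, with all 3 libraries above the 412 to 456 TPM of the tagged line. The median histone gene was 0.72 higher and the median of all genes 0.09 lower (log2). All 4 H1 genes, 16 of 17 H2A, 10 of 12 H3, 10 of 17 H2B and 6 of 11 H4 genes were higher.

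Most of the 2-fold differences were in H2A, which held 15 of the 22. Hist1h2ao had 223, 190 and 304 TPM (log2 1.71, limma adjusted p = 4.31e-06), Hist1h2ah 26.9, 31.2 and 28.0 TPM in the tagged line against 81.7, 71.1 and 100.4 TPM (log2 1.53, adjusted p = 1.65e-06), and Hist1h2ag 10.6, 12.47 and 12.98 TPM against 33.6, 32.8 and 66.7 TPM (log2 1.77, SE 0.24, adjusted p = 0.000136). No groups overlapped, but parental replicate 3 was well above the others in each. Among H1 genes, Hist1h1b had 1.704, 1.116 and 1.265 TPM in the tagged line and 3.41, 3.96 and 4.14 TPM in the parental line (log2 1.23, adjusted p = 6.11e-05). Hist1h1a had 6.31, 6.99 and 5.83 TPM in the parental line (log2 1.17, adjusted p = 0.000985), and Hist1h1c differed by 0.42 (log2, adjusted p = 0.00313). Slbp was higher as well, at 244.5 TPM against 133.6 TPM (log2 0.87, limma adjusted p = 5.44e-07). So were 19 of the 24 S-phase genes, with 1 lower, where 25.0% of all genes were higher and 41.0% lower. Markers of cell types moved too: 5 of 6 pluripotency markers were higher, with sums of 5077 to 5181 TPM in the parental line, and 6 of the 7 feeder fibroblast markers tested were higher and 1 lower, with sums of 101.1 to 103.8 TPM. Col1a1, a collagen of fibroblasts, had 8.16 TPM in the tagged and 36.0 TPM in the parental line, and Esrrb, a pluripotency factor, 108 TPM and 487 TPM. Their part in the histone differences was not tested.

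NPCs differed from the tagged mESCs in which histone genes they used. Of 61 genes, 33 were higher and 4 lower in NPCs, where 49.5% of all genes were higher and 39.5% lower, and 22 were past 2-fold and higher, against 25.9% of all genes. The share of higher genes was close to that of all genes, and fewer were lower. By class, all 17 H2A genes tested were higher, 14 of them past 2-fold, while 7 of 17 H2B, 3 of 12 H3, 3 of 11 H4 and 3 of 4 H1 genes were higher and 3 H2B genes and 1 H1 gene lower. The H2A rise was not particular to NPCs. Against the same DMSO libraries, the parental mESCs had 16 of 17 H2A genes higher, 15 of them past 2-fold. The median log2 difference of H2A genes was 1.42 in the parental line and 1.41 in NPCs. All 3 genes of the Hist3 cluster and all 6 tested of the Hist2 cluster were higher. Of these, Hist3h2bb-ps and Hist2h2be reached 1 TPM in NPC libraries alone and entered the test only through them. Their being higher therefore adds no support to these counts. With centred libraries 23 were higher and 16 lower, against 36.7% and 52.0% of all genes, the median of all genes having moved by 0.15 (log2).

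The Hist3 cluster held the largest differences. Hist3h2ba had 3.83, 3.55 and 2.80 TPM in tagged mESCs and 66.48, 65.95 and 65.94 TPM in NPCs (log2 4.11, SE 0.16, limma adjusted p = 5.18e-09). Hist3h2a had 25.9, 25.6 and 28.0 TPM in NPCs (log2 3.70, SE 0.07, adjusted p = 2.86e-11), with Trim17, its neighbour on the same strand, at a mean of 1.42 TPM. Hist2h2be, which entered the test only through its NPC libraries, had 8.46, 7.55 and 7.48 TPM there (log2 2.81, adjusted p = 4.15e-09). These 3 genes lay many times above every mESC library, and Hist3h2ba and Hist3h2a have extended models. Hist1h1c had 14.8, 16.7 and 19.1 TPM in NPCs (log2 1.62, adjusted p = 8.09e-08), between its levels in DMSO and at 96 h of dTAG-13 in mESCs.

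Among further genes higher in NPCs, Hist1h2ad, an H2A gene, had 16.7, 19.8 and 17.6 TPM in mESCs and 60.9, 58.3 and 58.1 TPM in NPCs (log2 1.69, limma adjusted p = 4.24e-08). Hist1h4i, the H4 gene with an extended model, had 12.7, 11.9 and 12.4 TPM and then 26.3, 25.3 and 29.0 TPM (log2 1.09, adjusted p = 4.45e-08), and Hist1h1e was higher by 1.42 (log2, adjusted p = 8.25e-05). The 4 lower genes were Hist1h2bj, from 5.16, 4.42 and 4.24 TPM to 1.84, 2.61 and 2.25 TPM (log2 -0.91, adjusted p = 3.18e-05), Hist1h1a, at 2.04, 1.05 and 0.902 TPM in NPCs (log2 -0.78, adjusted p = 0.00641), and Hist1h2br and Hist1h2bk, lower by less (log2 -0.50 and -0.43). Hist1h1a and Hist1h1c thus lay on opposite sides of their mESC levels, as they did at 96 h of dTAG-13.

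**Figure D4:**
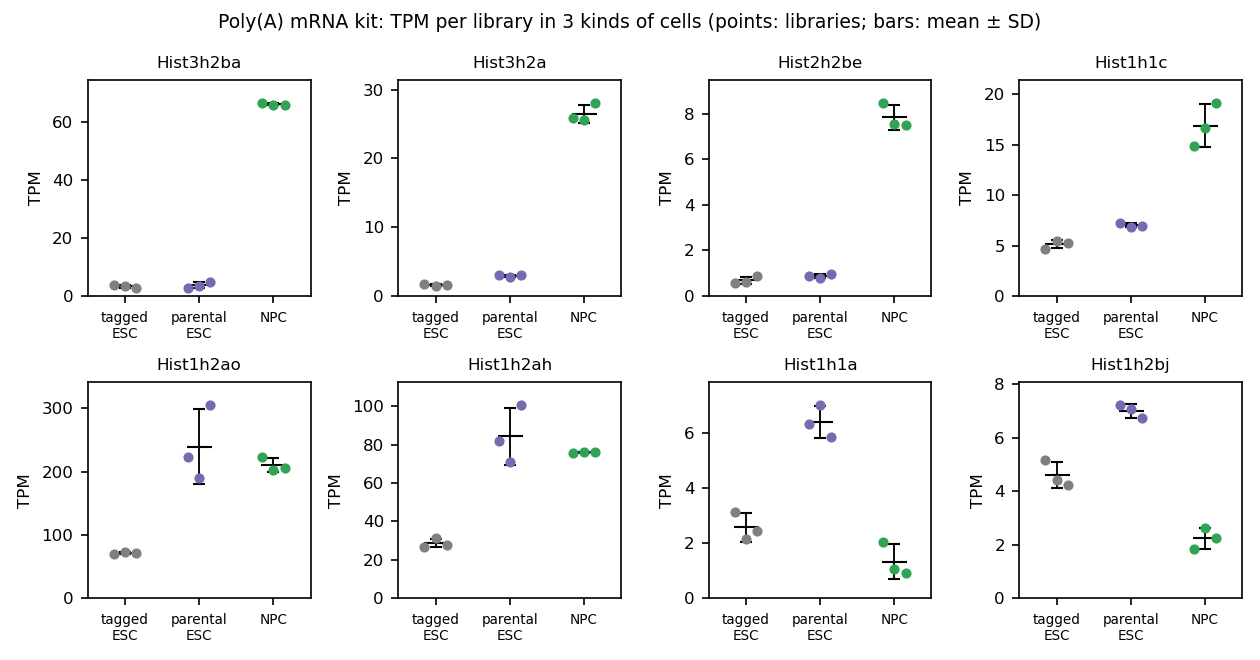
TPM in the mRNA kit for 8 histone genes in tagged mESCs (DMSO), parental mESCs and NPCs (DMSO). Points are single libraries, and bars are the mean and SD of 3 libraries. Hist3h2ba, Hist3h2a, Hist2h2be and Hist1h1c are highest in NPCs, Hist1h2ao and Hist1h2ah are higher in both than in tagged mESCs, and Hist1h1a and Hist1h2bj are highest in the parental line and lowest in NPCs.

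Replication-independent histones and regulators were compared in NPCs as well. Of 12 replication-independent histone genes, 8 were higher and 1 lower. H1f0, the linker histone of resting and differentiating cells, had 53.0 TPM in mESCs and 221 TPM in NPCs, and the macroH2A gene H2afy 77.4 TPM and 505 TPM. Among the 26 genes of histone mRNA processing and regulation 15 were higher and 8 lower, where 49.5% and 39.5% of all genes were. E2f1, a cell cycle transcription factor, had 24.9 TPM in mESCs and 55.9 TPM in NPCs, and Zfp473, whose product belongs to the U7 processing complex, 33.9 TPM and 1.62 TPM. Of the 24 S-phase genes 6 were higher and 15 lower. The time course and both comparisons of lines share the 3 DMSO libraries of the tagged line.

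**Figure D5:**
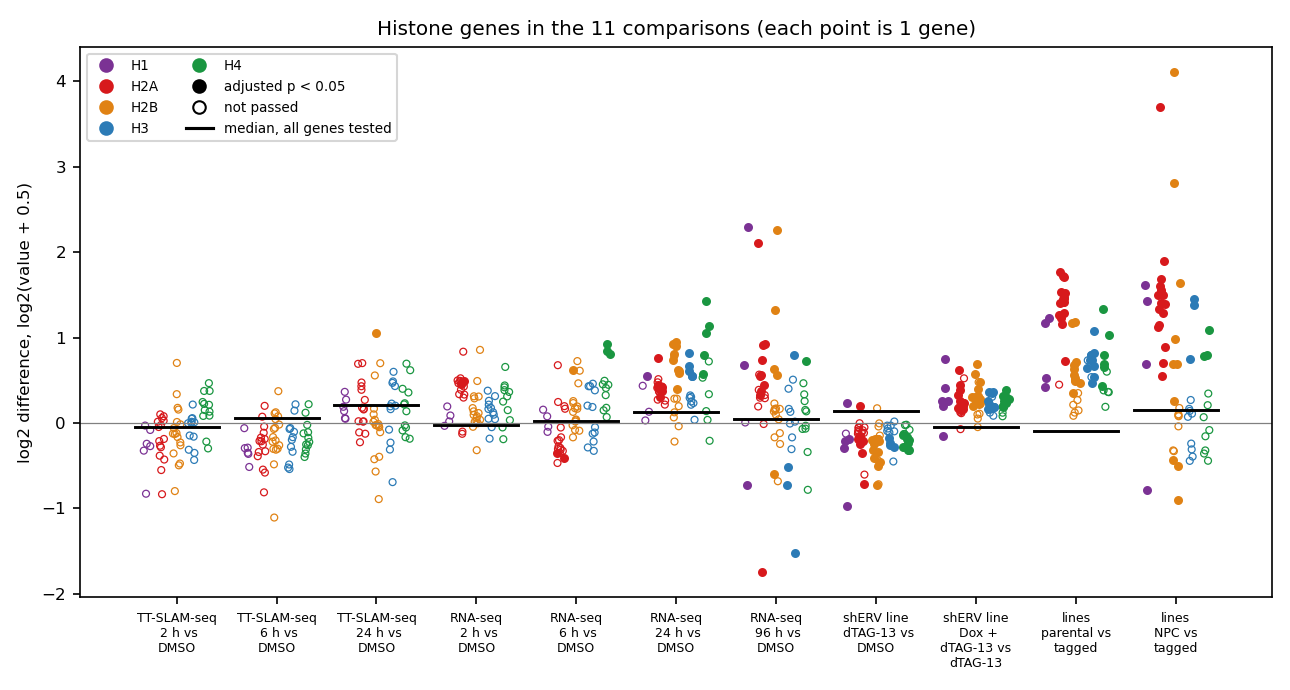
Log2 difference of each tested histone gene in the 11 comparisons, on the log2(value + 0.5) scale, coloured by class. Filled points passed limma's test (adjusted p below 0.05), open points did not, and the black line is the median of all genes tested. Histone genes lie mostly below that line in the shERV line under dTAG-13 (36 lower) and above it with Dox (55 higher) and in the parental line (46 higher).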

How the data were processed

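RNA-seq tables were deposited by the authors as 1 StringTie table per library, with TPM and FPKM per gene (both adjusted for gene length and sequencing depth) and a coverage column. TPM was used, and the coverage signal, as deposited, served only to compare depth. TT-SLAM-seq values were deposited by the authors as FPKM per gene, from reads with T>C conversions mapped with SLAM-DUNK and counted by strand with htseq-count on the GENCODE VM19 annotation, where a read that fits several features counts for each. ChIP-seq peaks were called by the authors per library on mm10, and the deposited peak files give a fold enrichment over background with -log10 p and q, of which only the fold was used. The submitters' processing notes name STAR 2.7.5a, StringTie 2.0.6, cutadapt 2.4, GATK 4.1.4.1 and deepTools 3.4.3, and the strand setting of StringTie and the peak caller's settings are not given in the sources used here. Hi-C, input and single-cell libraries were not used here.

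The 70 genes and the gene lists were chosen with earlier results of these data known. Gene IDs listed more than once (from 4 to 9 per table) were summed, and all 70 positions matched the GENCODE vM21 models on GRCm38. Genes with at least 1 TPM (0.5 FPKM in TT-SLAM-seq) in at least 3 libraries of a fit entered limma's moderated test (limma 3.58.1, R 4.3.3; lmFit and a trended eBayes, two-sided) on log2(value + 0.5), which understates changes of low genes. The libraries of TT-SLAM-seq, of the time course, of the shERV line, and of the tagged, parental and NPC cells were each fitted together. p-values were adjusted by Benjamini-Hochberg over all genes tested, and "higher" or "lower" means an adjusted p below 0.05. The fits were tested on simulated data with known changes. Replicate numbers are shared between groups, but the deviations of same-numbered libraries correlated at -0.205 to 0.177 over the 11 comparisons, and in 0 of these did the numbers pair the samples, so no block was used.

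Named are the H1 genes, the 2 members of each class highest in DMSO in each assay, the highest of the Hist3 and Hist4 clusters, and per comparison the 5 largest rises and falls among members that passed without overlap of the groups. Hist1h4n, Hist2h2bb, Hist1h4d and others outside this rule, such as overlapping or near-identical genes, were named after their values were seen. Alternatives were pseudocounts of 0.1 and 1, no filter, a mean of at least 5, centring on the median, the replicate block, leaving out each library, and for peaks a 2000-base window or the top 10000 peaks. Levels were handled in Python 3.11.15 with pandas 2.3.3. TPM files hold no read numbers, so precision rests on the spread of 3 libraries.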

Additional observations from a re-analysis of the deposited data

How the results depend on the processing

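Among the counts of histone genes, a pseudocount of 0.1 or 1 moved none by over 1.5 times. Centring each library on its median left 0 higher in TT-SLAM-seq at 24 h (1 without it), 4 lower at 6 h of the time course (2), where 24 h had 9 higher with 3 lower (27 and 0) and 96 h had 9 higher (17), 0 higher and 63 lower in the shERV line in dTAG-13 (2 and 36), and 16 lower in NPCs (4), where Hist1h2bg went from 0.26 to -0.14 (log2, limma adjusted p = 0.159). A filter on a mean of at least 5 TPM, which tests fewer genes, gave 8, 0, 11 and 9 higher at 2 h, 6 h, 24 h and 96 h of the time course, 0 lower at 96 h, 17 higher in the parental line, and 16 higher and 1 lower in NPCs. With no filter there were 2 higher in TT-SLAM-seq at 24 h, 0 lower at 6 h in the time course and 2 lower in NPCs.

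With the replicate block, 7 were higher at 2 h in the time course in place of 3. The block moved no other count by over 1.5 times, and the numbers do not pair the samples. Leaving out 1 library gave, in TT-SLAM-seq, 0 to 1 lower at 6 h and 1 to 2 higher and 0 to 1 lower at 24 h. In the time course it gave 1 to 3 higher at 2 h, 1 to 10 higher and 0 to 10 lower at 6 h, 16 to 25 higher at 24 h and 3 to 6 lower at 96 h. It gave 26 to 57 lower in the shERV line in dTAG-13, 0 to 1 lower with Dox, 39 to 46 higher in the parental line and 27 to 33 higher in NPCs. The causes of these shifts were not tested.

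For peaks, the mean number of histone starts overlapped was 67.7 for H3K27Ac and 3.67 for H3K9me3 in DMSO with a window of 2000 bases (66.7 and 1.33 with 500). It was 69 and 67 for RNAPII in DMSO and dTAG-13 (67 and 65) and 68 for MED23 in dTAG-13 (66). With the 10000 peaks of highest fold enrichment it was 55.7 and 33.3 for H3K27Ac in DMSO and dTAG-13, and 66.5 and 65.5 for MED23. Depth limits the genes with few TT-SLAM-seq reads most.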
